A study of Homo sapiens with 3 samples.

Results

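The strongest H3K9me3 regions of Jurkat cells were selected on their mean signal: those on chromosomes 1 to 22 with at least 13 per bin in the deposited region list. This held for 469 of 25698 autosomal regions in the control library and for 486 of 25935 in the CXCL12 library, together 955 of 51633. Strong regions that shared at least 1 bp were joined, which gave 611 loci. Jurkat is an established cell line that derives from acute T cell leukaemia. Both libraries came from cells held 90 min without serum; the control cells then stayed untreated, whereas the others received 100 ng/ml CXCL12 for 15 min. Cells were fixed for 15 min in 1% formaldehyde, and 30 µg of chromatin was immunoprecipitated. There was 1 library per condition, so differences between them have no replicate check and no test, and treatment and variation between preparations cannot be told apart. Coordinates of regions are in hg19.

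H3K9me3 is the trimethylated form of lysine 9 on histone H3, a mark of silenced chromatin that is written by SUV39H and SETDB1 enzymes and bound by HP1 proteins. It covers pericentromeric and subtelomeric repeats, imprinted loci and the clusters of KRAB zinc finger genes, whose own products bring SETDB1 to repeats through TRIM28. CXCL12 is a chemokine that attracts T cells through the receptor CXCR4. Because the mark does not measure RNA, the T cell identity of the line could not be checked with expression markers.

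The gene starts covered by strong H3K9me3 included promoters dense in CG dinucleotides and promoters nearly free of them. The following are the 150 bases before the start of 8 genes whose start lay inside a strong region in both libraries, shown to set those kinds side by side, from RefSeq on GRCh38.p14 and with every CG in capitals. CHFR encodes a mitotic checkpoint ubiquitin ligase, ZSCAN18, ZNF135 and ZSCAN4 zinc finger proteins, NKX1-1 a homeobox factor, and DIO3 the deiodinase that inactivates thyroid hormone. MESTIT1 is an RNA antisense to the imprinted gene MEST, and IPW is a noncoding RNA of the Prader-Willi region.
CHFR: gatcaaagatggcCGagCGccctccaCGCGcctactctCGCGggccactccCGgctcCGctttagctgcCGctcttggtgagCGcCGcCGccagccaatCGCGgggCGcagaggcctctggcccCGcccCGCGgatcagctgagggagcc
ZSCAN18: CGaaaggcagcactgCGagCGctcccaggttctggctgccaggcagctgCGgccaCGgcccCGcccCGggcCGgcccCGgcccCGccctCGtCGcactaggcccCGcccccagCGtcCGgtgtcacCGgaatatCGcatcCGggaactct
ZNF135: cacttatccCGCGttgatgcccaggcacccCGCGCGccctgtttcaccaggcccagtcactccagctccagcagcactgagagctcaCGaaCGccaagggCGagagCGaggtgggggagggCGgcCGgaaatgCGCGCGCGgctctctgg
NKX1-1: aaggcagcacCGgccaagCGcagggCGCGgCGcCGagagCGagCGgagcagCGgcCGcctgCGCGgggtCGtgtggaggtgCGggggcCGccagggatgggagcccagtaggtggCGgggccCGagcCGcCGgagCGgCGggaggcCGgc
DIO3: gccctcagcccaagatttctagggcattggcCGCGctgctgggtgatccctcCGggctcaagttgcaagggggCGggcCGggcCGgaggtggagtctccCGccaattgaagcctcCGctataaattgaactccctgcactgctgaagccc
MESTIT1: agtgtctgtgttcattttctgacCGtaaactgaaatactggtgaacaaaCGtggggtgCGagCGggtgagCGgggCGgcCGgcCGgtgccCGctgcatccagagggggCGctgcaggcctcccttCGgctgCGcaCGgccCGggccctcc
IPW: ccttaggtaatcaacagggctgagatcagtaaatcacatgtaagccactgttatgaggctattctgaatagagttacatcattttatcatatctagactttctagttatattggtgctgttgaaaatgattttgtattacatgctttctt
ZSCAN4: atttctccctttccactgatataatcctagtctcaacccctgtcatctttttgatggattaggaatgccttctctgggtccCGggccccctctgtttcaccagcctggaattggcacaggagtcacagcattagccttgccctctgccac

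The NKX1-1 sequence held 22 CG dinucleotides, those of CHFR and ZSCAN18 18 each, ZNF135 15, MESTIT1 14 and DIO3 8. ZSCAN4 had 1 and IPW had 0. CHFR lay on chromosome 12 in a region with a mean signal of 17.5 in the control and 18.3 in the CXCL12 library. The region over the NKX1-1 start measured 22.2 and 26.1, and the one over DIO3 20.1 and 21.5. ZSCAN18 and ZNF135 shared a single region at 20.2 and 20.5. MESTIT1 stood near the threshold at 13.6 and 13.3, while IPW reached 25.8 and 28.5 and ZSCAN4 15.7 and 16.6. These are means over whole regions and not the signal at the start itself.

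Strong regions were few but carried a larger share of the mark. They made up 1.83% of the autosomal control regions, 4.95% of the covered length (6.93 Mb) and 12.6% of the signal summed over bins. In the CXCL12 library they made up 1.87% of regions, 5.09% of length (7.62 Mb) and 12.8% of signal. Their median signal was 15.0 in the control and 14.9 in the CXCL12 library, with maxima of 57.4 and 67.1. These levels are set by the selection and are a description. At the threshold, the 3 control regions just inside measured 13, 13.01 and 13.01, and the 3 just outside 12.97, 12.98 and 12.99. The last of those was a 141.6 kb region over ZNF471, ZFP28, ZNF470 and ZNF71 on chromosome 19. In the CXCL12 library the values just inside were 13, 13.01 and 13.02, and those just outside 12.98, 12.98 and 12.99. PLXNA1, a semaphorin receptor gene, was just inside and EPHA8, an ephrin receptor gene, just outside.

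Both libraries passed the threshold at 331 of the 611 loci (54.2%, exact 95% interval 50.1 to 58.2). The control alone passed at 134 and the CXCL12 library alone at 146. These intervals cover the spread over loci here, not how cultures vary, and neighbouring loci are not independent. At 273 of the 280 loci where 1 library passed, the other library had a region there too, below 13. Its signal had a median of 11.1 where the control passed, against 14.1 in the control itself. Where the CXCL12 library passed, the control stood at a median of 11.7 against 13.9. The region under the threshold reached at least 10 in 228 of the 273 (83.5%). It was the longer of the pair at 122 of 130 loci where the control passed and at 110 of 143 where the CXCL12 library passed. Loci found strong in 1 library were thus mostly covered, at a lower mean over a longer stretch, in the other.

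**Figure D1:**
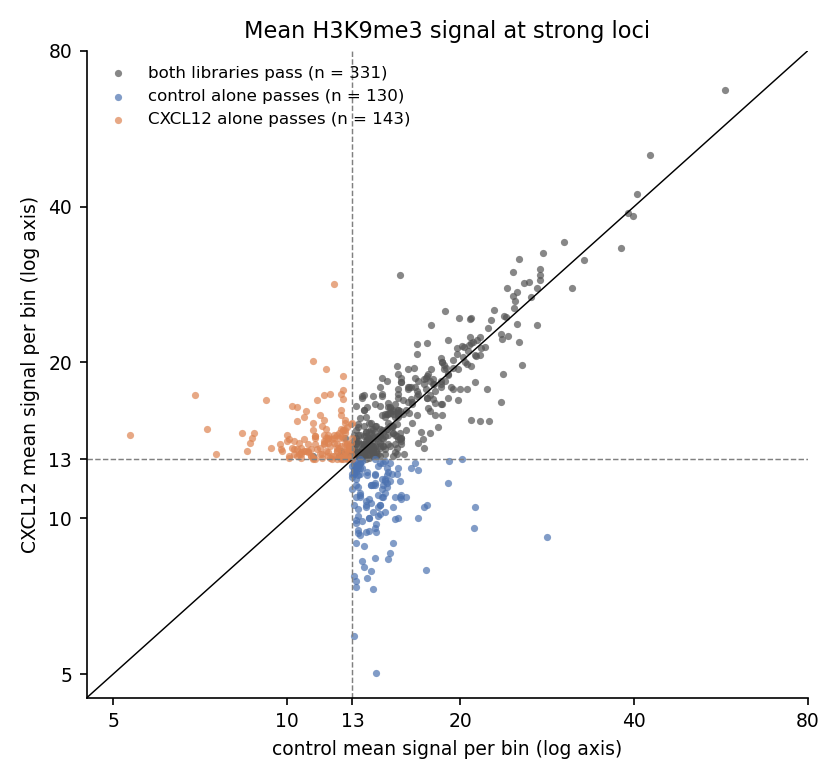
Mean signal per bin at the 604 strong loci with a region in both libraries, control on the horizontal and CXCL12 on the vertical log axis; each point is a locus, the solid line marks equality and the dashed lines the threshold of 13. The 331 loci where both pass follow the line of equality, and the loci where 1 library passes lie mostly between 10 and 13 in the other.

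The 12 highest loci by the mean of both libraries passed in both. Their control signals were at least 25.3 and their CXCL12 signals at least 27.9. The highest lay at chr8:58122000-58123399 beside LOC100507651, an uncharacterised gene, with 57.4 in the control and 67.1 in the CXCL12 library. Another of the 12, at chr8:58114600-58118999 with no annotated gene, measured 27.5 and 30.3. The second highest of the 12 was a 1.2 kb locus at chr18:44553200-44554399 in KATNAL2, with 42.7 in the control and 50.4 in the CXCL12 library. TCEB3CL, TCEB3C and TCEB3B, copies related to the transcription elongation factor elongin A, are listed there as upstream or downstream. A 2 kb locus in CDC27, a subunit gene of the anaphase-promoting complex, measured 39.8 and 38.3. CDC27 and the TCEB3 genes are in the list of duplicated primate families, where the placement of reads is uncertain. Of the 12 loci, 7 were compact and spanned at most 2 kb.

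The SNORD115 cluster was different in form, with 101.2 kb at chr15:25402200-25503399 under a mean of 40.4 in the control and 42.3 in the CXCL12 library. SNORD115 genes are tandem copies that encode C/D box small nucleolar RNAs, transcribed from the SNRPN unit of the imprinted Prader-Willi region. The neighbouring SNORD116 cluster, 102 kb at chr15:25264800-25366799, measured 25.8 and 28.5. Together these 2 loci carried 76 of the 93 snoRNA-list genes found at any autosomal region, beside 624 of 7450 (8.38%) of all listed genes. As loci they were 0.327% of strong and the snoRNA list 0.113% of other loci, since 2 tandem clusters hold all 76 genes. No CpG island was listed in either, although their promoter counts were 48 and 33.

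Of the 12, 4 had no annotated gene. A 0.4 kb locus at chr4:132664000-132664399 held a CpG island and measured 39.0 in the control and 38.8 in the CXCL12 library. The locus at chr14:88237400-88238799 measured 37.9 and 33.2. A 21.8 kb locus at chr16:88307600-88329399 measured 27.8 and 32.5. LMF1, a lipase maturation gene on chromosome 16, had a 24.8 kb locus with 6 CpG islands and values of 25.3 and 31.7. Inside SH3RF3, a ubiquitin ligase gene, 0.6 kb measured 30.2 and 34.2. The locus at LOC100287759 on chromosome 9 measured 32.8 and 31.6.

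**Figure D2:**
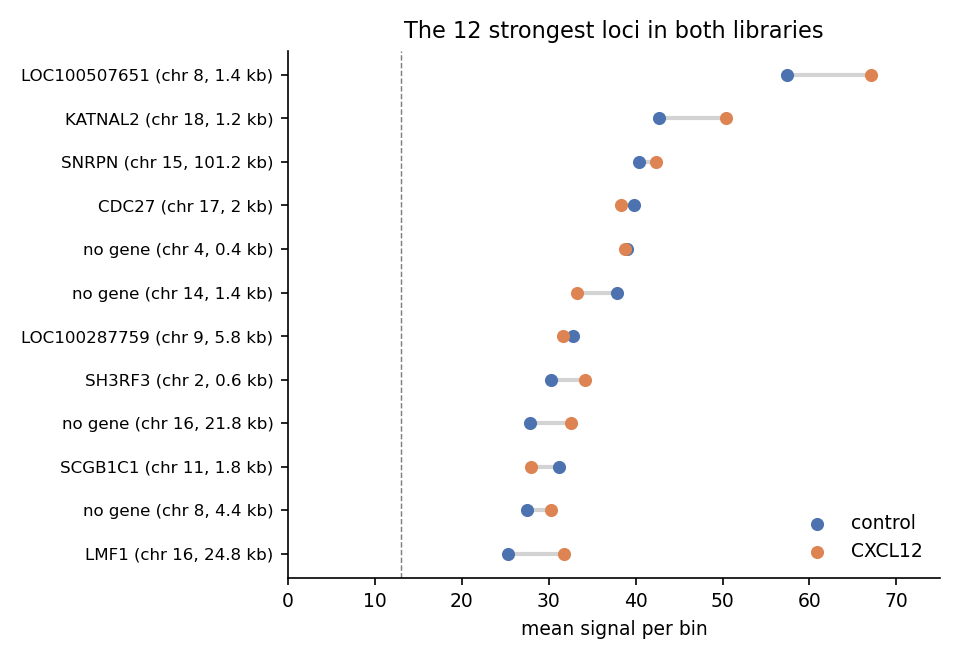
Mean signal per bin in the control and CXCL12 libraries at the 12 highest strong loci, labelled with the first listed gene, chromosome and locus length; the dashed line is the threshold of 13. Every locus lies above 25 in both libraries, and 7 of the 12 are higher in the CXCL12 library.

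Strong loci were about as intense in both libraries. Across the 604 loci with a region in both, the log2 ratio of CXCL12 to control signal had a median of 0.029 (exact 95% interval 0.007 to 0.050), quartiles of -0.13 and 0.18 and an SD over loci of 0.33. Over all 20639 shared autosomal loci the median was 0.041. Where both libraries passed, the median was 0.025 with an SD of 0.16. By this measure 4 strong loci were at least 2-fold higher after CXCL12 (0.662%), beside 0.121% of all shared loci, and 6 were at least 2-fold lower (0.993%), beside 0.179%. Taking loci in which either library is high widens the ratio by itself, so these shares are not read against each other. All 10 lay where 1 library passed, and at 10 of 10 the passing library had the shorter covered length. None of the 10 was 2-fold apart by the highest bin.

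The lowest ratio fell in the alpha protocadherins, cell adhesion genes arranged as tandem variable exons and silenced in most cells. At chr5:140229200-140230399 the control measured 28.3 over 1.2 kb and the CXCL12 library 9.22 over 5.6 kb, a log2 ratio of -1.62. The highest bins were 41 and 39, close together. At chr3:118437800-118438199, with no gene, the control measured 14.3 over 0.4 kb and the CXCL12 library 5.02 over 2.8 kb, and the highest bins were 21 and 15. The other 4 of the 6 lowest ratios had no gene either. At chr2:165930000-165933599 the means were 21.2 and 10.5, while the highest bin was larger in the CXCL12 library, 65 against 56.

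The highest ratio was in C1orf125 on chromosome 1, with 5.35 over 7.2 kb in the control and 14.5 over 1.8 kb in the CXCL12 library (log2 ratio 1.44). At ZNF835, a zinc finger gene at chr19:57168600-57183999, the control measured 12.1 over 74.6 kb and the CXCL12 library 28.3 over 15.4 kb, with highest bins of 106 and 114. Inside ZNF717 on chromosome 3 the means were 7.26 and 14.9 and the highest bins 39 and 33. The locus beside SPCS3, a signal peptidase subunit gene, had means of 9.19 and 16.9 and highest bins of 52 and 73. At chr15:20544200-20552799, with no gene, the means were 15.7 over 8.6 kb and 29.5 over 3.8 kb, and the highest bins 102 and 100. In each of these 5 loci the higher mean went with the shorter region.

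By the highest bin, the loci at least 2-fold higher after CXCL12 numbered 2 and those at least 2-fold lower 0, beside 0.683% and 0.276% of all shared loci. These 2 were in BACH2, a lymphocyte transcription repressor gene, and in CASC4, and were named after their values were seen. The ratio of the highest bin had the opposite sign to that of the mean at 230 of the 604 loci. The BACH2 means were both near 13, and the CASC4 means 12.5 and 17.0. At the 353 loci whose covered lengths in the libraries were matched, the median log2 ratio of the mean was 0.049 and 0 were 2-fold apart.

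A region in a single library was seen at 7 strong loci. The control alone had a region at DUX4C and FRG2 (chr4:190933000-190942999), genes beside a subtelomeric repeat array, with a mean of 21.1 over 10 kb. It also stood alone at chr7:56819200-56819599 with 15.4 and beside LOC100507153 on chromosome 3 with 13.4. A further control locus on chromosome 16 had no partner and measured 13.3. The CXCL12 library alone had a region beside MTIF3, a mitochondrial translation factor gene, with 22.5 over 0.8 kb. It stood alone at 0.4 kb loci at chr2:90414000-90414399 with 20.7 and chr15:21315800-21316199 with 14.8. No signal is listed where nothing was called, so no ratio can be given.

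Strong regions were longer than other regions at the median. The median was 7400 bp in the control (quartiles 4200 and 13200) and 8200 bp in the CXCL12 library (5000 and 14350), against 4000 and 4400 bp for the other autosomal regions. Length is not used by the rule, but the mean averages over a region's own bins, so the measures are not independent. The share of strong regions was not even over length. Among regions under 1 kb, 3.89% were strong in the control and 5.75% in the CXCL12 library. From 1 to 5 kb it was 0.852% and 0.712%, from 5 to 20 kb 2.46% and 2.60%, and at 20 kb and over 17.1% and 16.4%. Strong regions were thus called both short and long, with the lowest share between 1 and 5 kb. The input library was not analysed, so background signal at the short regions was not tested. Of the 24 loci under 1 kb, 9 passed in both libraries and 15 had no gene.

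The longest locus covered 388.4 kb at chr19:58428200-58816599, from ZNF417 to ZNF8, with means of 20.2 in the control and 20.5 in the CXCL12 library and 21 CpG islands. It includes ZNF274, whose product is known to bring SETDB1 to the 3′ ends of other zinc finger genes. The second covered 355.4 kb at chr12:133418400-133773799, from CHFR through ZNF605, ZNF26, ZNF84, ZNF140 and ZNF10 to ZNF268, at 15.6 and 16.2. The third, 186.4 kb at chr4:190470000-190656399, had no annotated gene and measured 15.3 and 16.2. Around ZNF678 on chromosome 1, 160.2 kb measured 12.4 and 13.5. On chromosome 5, a 147 kb locus over ZNF354B, ZFP2, ZNF454 and GRM6, a glutamate receptor gene, measured 17.5 and 17.1. Where MIR3147 is listed on chromosome 7, 157.8 kb measured 13.9 and 14.1. In each of these 6 domains the means of the libraries lay close together.

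CpG islands were the annotation in which strong and other regions stood farthest apart. In the control, 36.0% of strong regions held an island (95% interval 31.7 to 40.6) against 3.85% of other regions (3.61 to 4.09). In the CXCL12 library the shares were 32.9% (28.8 to 37.3) and 3.68% (3.45 to 3.92). Longer regions can hold more islands, so the shares were also taken within classes of length. In the control they were 21.1% against 1.71% under 1 kb, 24.0% against 2.20% from 1 to 5 kb, 31.4% against 5.39% from 5 to 20 kb and 70.6% against 31.4% at 20 kb and over. In the CXCL12 library they were 22.2% against 2.71%, 28.2% against 1.93%, 26.1% against 4.95% and 61.8% against 30.6%. The share was higher in strong regions in each class of both libraries, though the shortest class holds only 19 and 18 strong regions. Loci where both libraries passed held an island in 42.6%, those where the control alone passed in 23.9% and those where the CXCL12 library alone passed in 14.4%. Their median lengths were 9400, 5000 and 6900 bp in turn, so these shares are not matched for length.

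**Figure D3:**
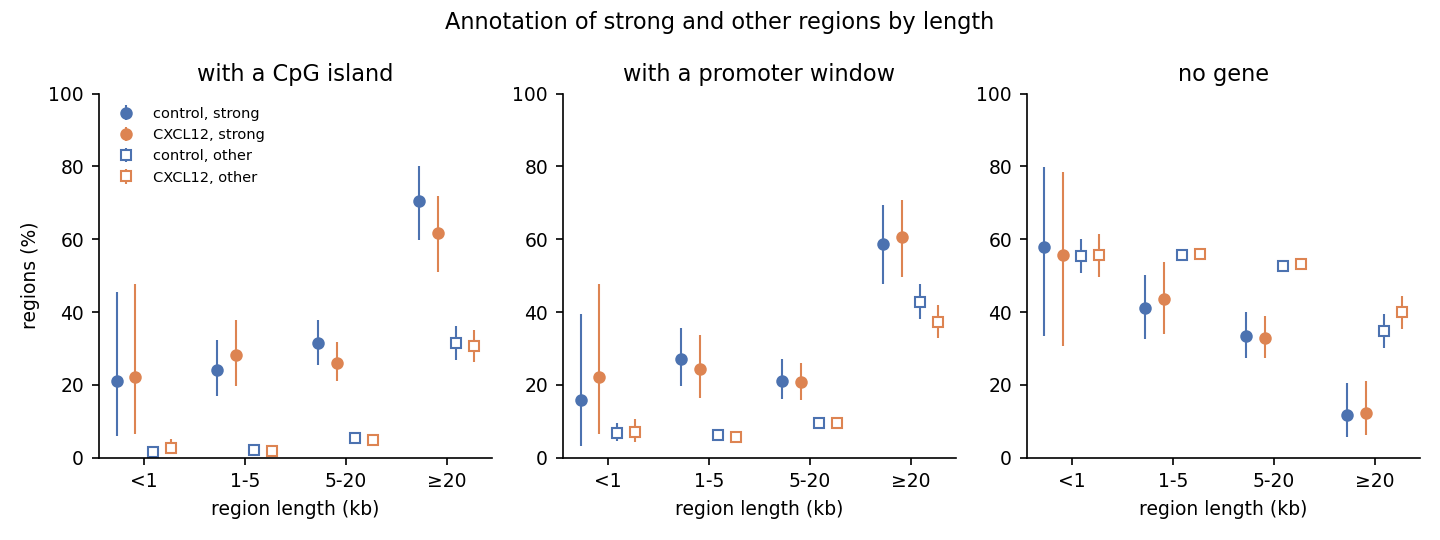
Percent of regions with a CpG island, with a promoter window and with no gene, by region length in kb; filled circles are strong regions, open squares other autosomal regions, blue the control and orange the CXCL12 library, and bars are exact 95% intervals. Strong regions hold a CpG island more often in each length class, and those of 20 kb and over are least often without a gene.

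Strong regions were also listed with a gene more often, save in the shortest class of length. A gene was absent from 32.6% of strong control regions against 54.2% of the others, and from 32.3% against 54.5% in the CXCL12 library. Under 1 kb this was 57.9% against 55.4% in the control and 55.6% against 55.6% in the CXCL12 library. From 1 to 5 kb it was 41.1% against 55.7% and 43.7% against 56%. A promoter was counted in 29.4% against 8.08% in the control and in 28.8% against 7.87% in the CXCL12 library. That promoter count is wide: in 99.98% of the regions checked it equalled the number of gene starts whose window from 7500 bp before to 2500 bp after touched the region. The listed position was in a gene for 43.9% against 34.2% in the control and for 44.0% against 34.2% in the CXCL12 library. Short regions did not share this contrast. Under 1 kb the values were 26.3% against 34.1% in the control and 22.2% against 33.2% in the CXCL12 library. From 1 to 5 kb they were 34.9% against 34.2% and 35% against 34.4%. Over all lengths, only flank positions were listed in 23.5% against 11.6% in the control, and in 23.7% against 11.3% in the CXCL12 library. This position does not measure overlap with the whole region. CHFR and IPW were listed as upstream, although their starts lay inside the region. The annotation does not give exon or intron.

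A strict measure is whether the gene start itself lies inside a strong region. This was so for 76 genes with a RefSeq promoter, 46 of them in both libraries, and 42 of the 76 were zinc finger genes. The 300 bases around their starts had a median observed to expected CpG ratio of 0.76 (95% interval 0.67 to 0.86). At 469 genes whose start lay inside another region the median was 0.67 (0.63 to 0.70), and at 21347 autosomal genes at no region 0.49. A ratio of at least 0.6 was reached by 71.1%, 59.3% and 45.0% in turn. The intervals of the first and second group overlap. At 269 genes listed at a strong region with the start outside it, the median was 0.80 (0.75 to 0.82). A ratio of at least 0.6 was reached by 68% of these. The high ratio was thus not particular to starts inside strong regions. Among genes outside the zinc finger and protocadherin families, FANK1 and IRX1, a homeobox gene, had ratios of 0.94 and 0.90. IRX1 lay under 14.4 in the control and 13.3 in the CXCL12 library. PTGDR, a prostaglandin receptor gene, had a ratio of 0.86 under 13.8 and 13.7. The ghrelin receptor gene GHSR had a ratio of 0.48 under 13.9 and 13.3. Of 624 symbols at strong regions, 345 (55.3%) matched a promoter, so these values describe the matched genes and a check of CpG content over all genes at strong regions is void.

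**Figure D4:**
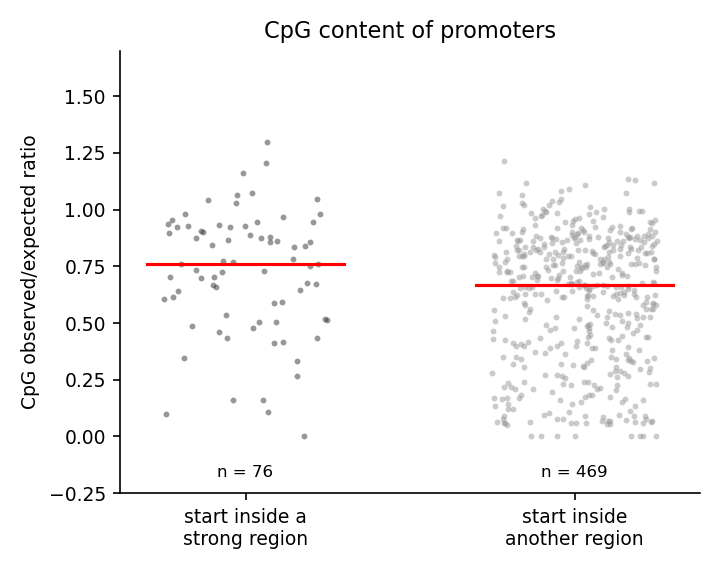
Observed to expected CpG ratio of the 300 bases around gene starts, for 76 genes whose start lies inside a strong region and 469 whose start lies inside another autosomal region; each point is a gene and the red line is the median. The medians are 0.76 and 0.67, and both groups span ratios from 0 to above 1.

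Zinc finger genes were the most frequent named family. They were listed at 66 strong loci (10.8%) against 1.69% of the 27358 other loci. Of the 389 list members at any autosomal region, 105 (27%) were reached, beside 624 of 7450 (8.38%) of all listed genes. Both libraries passed at 45 of the 66. Their loci had a median length of 31500 bp, so they can carry more genes than shorter loci do. The highest of these loci, besides that at ZNF835, included a locus listed as downstream of ZNF268 on chromosome 12. It measured 23.8 in the control and 24.6 in the CXCL12 library. The ZNF268 start lay in another region, of 12.6 and 13.5. A locus listed as upstream of ZFP37 on chromosome 9 measured 21.4 and 22.1, and the locus in ZNF7 on chromosome 8 22.1 and 21.4. The median log2 ratio over the zinc finger loci was 0.09, beside 0.041 over all shared loci.

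Clustered protocadherins were listed at 11 strong loci (1.80%) against 0.0877% of other loci, all 11 within chr5:140171200-140759599. Of the 50 list members 25 were reached, beside 8.38% of all listed genes. The control passed at all 11 and the CXCL12 library at 4. Their median log2 ratio was -0.18. Neighbouring loci here share regions: a single CXCL12 region of 38.2 kb, with a mean of 12.98, spans the loci at chr5:140171200-140178199 and chr5:140180200-140184599. The control measured 14.2 and 20.1 there. The highest bins went the other way, 72 and 61 in the control against 105 in the shared CXCL12 region. The locus at chr5:140201200-140204199 had 14.5 in the control and 14.4 in the CXCL12 library, with highest bins of 37 and 37. Several symbols are listed for 1 locus, since the variable exons belong to overlapping transcripts.

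Imprinted genes were listed at 8 strong loci, and both libraries passed at 8 of 8. They were 1.31% of strong loci against 0.227% of others. Besides the SNRPN loci, the locus beside MEG3, a maternally expressed noncoding RNA, measured 18.6 in the control and 20 in the CXCL12 library. In KCNQ1, a potassium channel gene, the values were 13.5 and 17.1, and the highest bins 65 and 68. The retinoblastoma gene RB1 measured 13.7 and 14.4, and the locus at ZNF597 13.7 and 15.7. MEST, a hydrolase gene, measured 13.6 and 13.3. At ZIM2 and PEG3 the locus means were 11.1 and 13.2, a mean that also takes in control regions under 13.

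Repeated gene copies make the placement of reads uncertain, because a read from 1 copy can be placed at another. Genes on the list of duplicated primate families were named at 8 strong loci (1.31% against 0.256% of other loci). By gene, 16 of 76 members (21.1%) were reached, beside 8.38% of all listed genes. At 4 of the 8 the listed position was in such a gene, a label that does not measure overlap with a repeated copy. The list also holds KATNAL2, and at its locus only KATNAL2 had that label. The TCEB3 copies there were listed as upstream or downstream. BAGE3 and BAGE on chromosome 21 had a 102.8 kb locus with 25.1 in the control and 23.7 in the CXCL12 library. The FAM27C locus on chromosome 9 spanned 0.4 kb with 19.7 and 20.8. Uncharacterised LOC and LINC genes were listed at 89 strong loci (14.6% against 5.21% of other loci). By gene, 93 of 993 members (9.37%) were reached, near the 8.38% of all listed genes. A gene of any kind was listed at 65.8% of strong and 45.5% of other loci. Among matched genes at strong loci, 5 had a promoter that shared at least 50% of its 31-base words with another promoter. They were FRG2, SCGB1C1, LOC100287704, FAM27E2 and LOC401357. With the start inside a strong region, 1.32% of genes had such a copy, against 1.28% with the start inside another region and 2.04% of genes at no region. The snoRNA and TCEB3 copies are not among the matched promoters, so this search leaves them out.

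The sequences below show how alike such copies are, in the 150 bases before the start on GRCh38.p14. SCGB1C1, a secretoglobin gene on chromosome 11, and SCGB1C2 on chromosome 17 differ at 0 of these bases, so 1 line stands for both. LOC100287704 and LOC100287834 on chromosome 7 differ at 1 base, which is in capitals.
SCGB1C1 and SCGB1C2: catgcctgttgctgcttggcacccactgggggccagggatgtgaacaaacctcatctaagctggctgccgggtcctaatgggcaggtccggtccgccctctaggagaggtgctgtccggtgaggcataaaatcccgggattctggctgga
LOC100287704: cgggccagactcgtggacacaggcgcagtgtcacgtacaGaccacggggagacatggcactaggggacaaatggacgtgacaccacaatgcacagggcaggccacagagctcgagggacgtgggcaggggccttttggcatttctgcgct
LOC100287834: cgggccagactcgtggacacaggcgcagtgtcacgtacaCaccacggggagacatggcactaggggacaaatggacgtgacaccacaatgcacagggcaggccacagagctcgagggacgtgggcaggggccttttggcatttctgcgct

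The locus upstream of SCGB1C1, at chr11:189400-191199 in hg19, measured 31.2 in the control and 27.9 in the CXCL12 library. The SCGB1C1 start lay outside it, so the likeness of the promoters does not show whether the locus itself is repeated. The start of LOC100287704 lay inside a region of 15.6 in the control and 17.8 in the CXCL12 library. How many reads at either place came from other copies was not tested.

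Each of the remaining lists was found at 7 strong loci or fewer. Olfactory receptors, a large family silenced outside the nose, were listed at 2 strong loci (0.327%) and at 0.355% of other loci. OR10H4 measured 17.1 in the control and 14.7 in the CXCL12 library, and OR10H3 12.7 and 15.0. MicroRNA genes were listed at 7 loci (1.15% against 0.318% of other loci). By gene, 6 of 154 members (3.9%) were reached, fewer than the 8.38% of all listed genes. At none of the 7 loci was the listed position in the microRNA gene, a label that does not show whether the locus covers it. Among genes of the H3K9 methylation machinery, ZNF274, KDM4B (a demethylase gene) and EHMT1 (a methyltransferase gene) had strong loci, the last with 13.1 and 14. These were 3 of the 9 list members at any autosomal region, and 0.491% of strong loci against 0.0768% of others. Of chemokine and migration genes, the locus downstream of CCR4, a receptor of skin-homing T cells, measured 15.3 and 14.6, and the one in CXCL13 12.7 and 13.1. That list was at 0.327% of strong and 0.0914% of other loci. By gene, 2 of its 24 members (8.33%) were reached, near the 8.38% of all listed genes. Of the T cell markers, CD2 and IL7R had a strong locus upstream, with 24.0 and 24.5 at CD2 and 13.8 and 13.8 at IL7R. They were 2 of the 5 T cell markers at any autosomal region, and 0.327% of strong loci against 0.0219% of others, a contrast that rests on 2 loci. Of the B cell and myeloid markers 5 were at any autosomal region and 0 at a strong locus. The marker lists and the H3K9 list hold too few genes to be judged against the 8.38% over all listed genes.

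Some single genes held several strong loci, counted where the listed position was in the gene. PTPRN2, a receptor-type phosphatase gene near the end of chromosome 7, overlapped 5, with control values from 12.6 to 15.7 and CXCL12 values from 13.3 to 16.1. ADAMTS2, which encodes the procollagen N-proteinase, overlapped 4, and both libraries passed at each. Their values ran from 24.8 in the control and 25.5 in the CXCL12 library down to 16.3 and 16. MAD1L1, a spindle checkpoint gene, overlapped 4, of which 1 passed in both libraries. The epidermal genes HRNR and FLG, which encode proteins built of internal repeats, lay on chromosome 1 with 24.9 and 26.3 at HRNR and 20.8 and 24.3 at FLG. PTPRN2, ADAMTS2, MAD1L1, HRNR and FLG were named after their values were seen.

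Strong loci were unevenly spread over the chromosomes. Chromosome 7 had 70, chromosome 19 had 57 and chromosome 1 had 44, while chromosome 13 had 8. On chromosome 19, 4.79% of control regions and 6.65% of CXCL12 regions were strong, and these made up 12.5% and 14.8% of its covered length. On chromosome 7 they made up 10.3% and 9.66% of the length, and on chromosome 6 0.912% and 0.995%. The median strong region on chromosome 19 measured 26200 bp in the control and 24600 bp in the CXCL12 library, longer than on any other chromosome. Strong loci also lay in groups: with a gap of at most 500 kb, 301 of the 611 stood alone and 116 (19%) fell into 17 groups of 5 or more. The largest groups were on chromosome 7, with 14 loci at chr7:62481800-63645799 and 12 at chr7:56495000-57886999. Each group listed 1 zinc finger gene, ZNF727 and ZNF716 in turn, and 6 and 4 of the loci had no gene. Both libraries passed at 9 loci of each group. On chromosomes 5 and 7, groups of 11 and 8 lay over the protocadherins and PTPRN2.

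**Figure D5:**
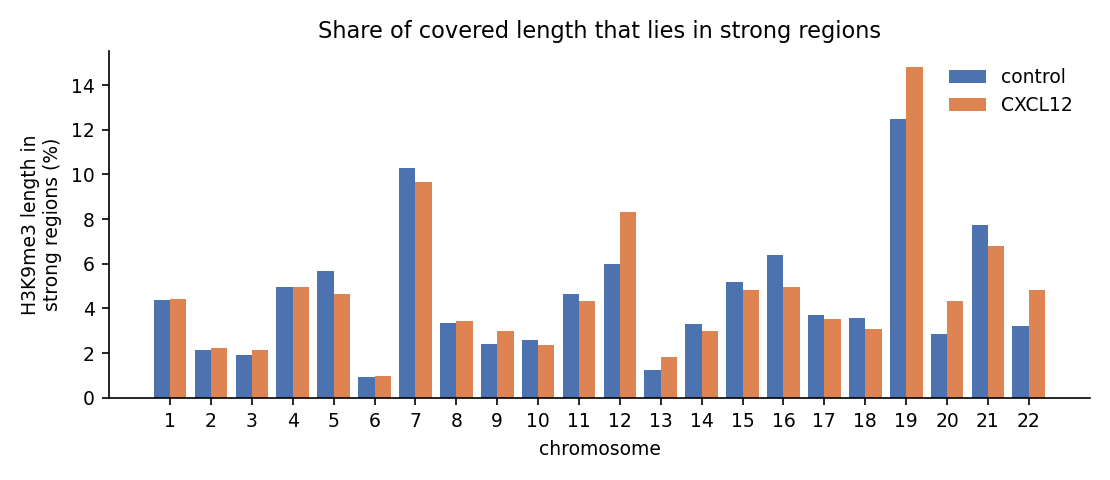
Percent of the H3K9me3-covered length of each autosome that lies in strong regions, for the control and CXCL12 libraries. Chromosome 19 is highest with 12.5% and 14.8%, chromosome 7 follows with 10.3% and 9.66%, and chromosome 6 is lowest with 0.912% and 0.995%.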

How the data were processed

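H3K9me3 was profiled by chromatin immunoprecipitation and sequencing in 1 control and 1 CXCL12-treated library, grouped by their labels; an input library was not analysed here. Per the submitters' processing notes, the tools were BWA 0.7.12 (alignment) and SICER 1.1 (broad region calling) with build hg19; no settings are stated. For each region the authors deposited 2 signal values, its mean per bin and its highest bin. Multiplying mean by bin count gave a whole number, to within 0.001%, for 100% of regions. Scaling between libraries and depth are not given, so the depth behind each value is unknown and no counting interval can be set. Whether coordinates count from 0 or 1 is also not given.

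Strong regions sharing at least 1 bp were chained. A locus value is the bin-weighted mean over all regions of a library that touch the locus, and ratios are log2 with no pseudocount. Shares have exact Clopper-Pearson 95% intervals and medians exact order-statistic intervals. With 1 library per group no p-value was computed. The named loci were the 12 highest, the 6 longest, the 6 highest and 6 lowest ratios, up to 6 with a region in a single library, the 6 highest with no gene, the 5 highest with a CpG island or a promoter, up to 5 per gene list, and 3 regions on each side of the threshold. The members, the threshold and the gene lists were chosen with earlier results of these data known. The length classes, the 500 kb gap, the gene starts, CpG ratios, promoter copies and the sequences shown were chosen after seeing the data. Gene starts were placed from the listed distances and RefSeq strands, and no coordinates were converted between builds. 14 regions at or above 13 on chromosomes X and Y are no members. Scripts were tested on simulated data and ran under Python 3.11.15 with pandas 2.3.3, numpy 2.4.6, scipy 1.17.1 and matplotlib 3.10.9.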

Additional observations from a re-analysis of the deposited data

How the results depend on the processing

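The number of strong loci depends on the threshold: 611 at 13, 1960 at 10 and 224 at 16, and the share where both libraries passed was 58.5% at 16. The median log2 ratio was 0.087 by the highest bin and -0.012 when centred on all shared loci. The 10 loci at least 2-fold apart became 44 under a 1.5-fold rule, 2 by the highest bin, 0 where both libraries passed and 0 at matched lengths. By the highest bin the log2 ratio had the opposite sign at 24 of the 57 named loci with a ratio, and centring turned the sign at 5. Of the 10 loci at least 2-fold apart, 3 turned by the highest bin: 0.22 at chr2:165930000-165933599, -0.24 at ZNF717 and 0.30 at chr18:76415000-76416799. A mean also depends on the called length. The median length was 6600 bp in the control at a threshold of 10, and 10400 bp (control) and 11200 bp (CXCL12) when regions were chosen by the highest bin. The CpG island share was 22.2% (control) and 21.8% (CXCL12) at a threshold of 10, 43.2% and 38.0% at 16, and 59.7% and 54.8% as a share of length. In the CXCL12 library it was 28.7% without regions at zinc finger genes, an alternative chosen after seeing the data. The promoter share was 22.6% and 22.2% at a threshold of 10, and 52.7% and 51.7% of length. The share with no gene was 37.9% and 37.8% at 10, and 17.8% and 19.2% of length. The duplicated families were listed at 4 loci when the listed position had to be in the gene. The cause of these moves was not tested. No paired analysis was possible because each group has 1 library. Depth and scaling are unknown, so small differences between the libraries could not be judged.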
